A study of Drosophila melanogaster with 2 samples.

Results

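Trl, Cp190, mod(mdg4) and psq are 4 Drosophila genes whose proteins carry a BTB domain and act on chromatin, either through GAGA repeats in DNA or at insulators. They were taken by name, and every summit of tagged tramtrack in one of the genes or within 2 kb of it was collected: 12 of the 3815 summits on the chromosome arms, at 4 of 13968 protein-coding genes. The libraries came from chromatin immunoprecipitation with sequencing (ChIP-seq) on whole embryos collected at 0 to 24 h from the fly strain ttk-GFP, a transgenic line that expresses tramtrack (ttk) joined to eGFP. Chromatin was sonicated to 200 to 800 bp and precipitated through the GFP tag, while the labels' antibody entry reads ttk. There were 2 biological replicates of this single group. Without another condition, and with no control library analysed here, the values are descriptions and carry no test. Whole embryos of all these ages mix every cell type, so a summit does not say which cells hold the protein.

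The BTB domain lets proteins pair and build larger assemblies, and ttk, a repressor, has one too. Trl encodes GAGA factor, which binds GAGAG repeats and helps keep promoters and Polycomb response elements open. psq encodes Pipsqueak, which also recognises GAGA repeats, through a different kind of DNA-binding domain, and is linked to Polycomb silencing. Cp190 is a zinc-finger protein recruited to insulators, the elements that separate neighbouring regulatory domains, by several DNA-binding partners. mod(mdg4) encodes a large set of isoforms with a common BTB end and different ends on the other side, and an isoform of this set works with Su(Hw) and Cp190 at the gypsy insulator. Part of the isoform-specific mod(mdg4) exons comes from separate precursor RNAs, annotated as pre-mod(mdg4) units, which are joined to the common exons by trans-splicing.

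The sequences that follow lie under the summits the results turn on: the strongest at Trl, the only 1 at Cp190, and both at mod(mdg4). They are plus-strand dm6 sequence from the NCBI assembly, with annotated untranslated exon bases left out, and capitals mark matches to any of 9 short motifs searched on both strands. The Trl peak, the whole of chr3L:14759360-14759659, has its summit at base 132 of the run and lies in an intron. The Cp190 stretch is chr3R:15275271-15275521 with the summit at base 101, between the gene and its neighbour CG4338. The first mod(mdg4) stretch, chr3R:21378661-21378853 with the summit at base 95, lies between mod(mdg4) and tin. The second, chr3R:21365489-21365608, fills the space between opposed pre-mod(mdg4) starts and begins just beside the summit at position 21365485.
Trl intron: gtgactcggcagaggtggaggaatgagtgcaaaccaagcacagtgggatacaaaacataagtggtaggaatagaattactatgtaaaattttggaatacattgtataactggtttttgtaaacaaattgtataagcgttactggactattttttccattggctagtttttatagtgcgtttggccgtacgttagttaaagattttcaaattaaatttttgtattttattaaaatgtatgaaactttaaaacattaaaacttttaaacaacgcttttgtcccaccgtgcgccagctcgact
Cp190 promoter: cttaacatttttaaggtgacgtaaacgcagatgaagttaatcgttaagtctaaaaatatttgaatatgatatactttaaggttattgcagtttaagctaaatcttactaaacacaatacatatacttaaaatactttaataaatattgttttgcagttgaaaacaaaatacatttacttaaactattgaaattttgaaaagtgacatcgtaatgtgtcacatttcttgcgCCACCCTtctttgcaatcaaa
mod(mdg4) and tin: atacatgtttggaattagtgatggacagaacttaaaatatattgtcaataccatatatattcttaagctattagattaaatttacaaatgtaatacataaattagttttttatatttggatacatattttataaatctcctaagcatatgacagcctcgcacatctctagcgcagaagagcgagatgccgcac
mod(mdg4) internal starts: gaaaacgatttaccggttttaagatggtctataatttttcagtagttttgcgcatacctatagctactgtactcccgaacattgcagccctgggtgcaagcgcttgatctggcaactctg
The Trl run and both mod(mdg4) runs are all in lower case because none of the motifs is in them. In the Cp190 run the capitals are CCACCCT, the reverse complement of AGGGTGG.

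All 4 genes had a summit, against 28.2% of all protein-coding genes. Trl had 4 summits, Cp190 had 1, mod(mdg4) had 2 and psq had 5. Longer genes more often had a summit, and all 4 members are longer than the median gene of 2164 bp. The protein-coding genes were therefore put into 10 classes of equal number by length. Cp190 (4810 bp) fell in class 8, where 34.8% had a summit. Trl (13121 bp) fell in class 9, with 39.5%, and mod(mdg4) (26556 bp) and psq (59393 bp) fell in class 10, the longest, with 54.8%. At least 4 summits, the number at Trl, were found at 1.36% of the genes in class 9. At least 5, the number at psq, were found at 5.87% of class 10, and at least 2, as at mod(mdg4), at 30.6%. These counts depend on the list: the thresholded list of replicate 1 alone had 3 summits at psq and 6 at Trl, and that of replicate 2 alone had 2 at psq and 3 at Trl. Per length of gene and flanks, Trl had 2.34 summits in 10 kb, Cp190 1.14, psq 0.789 and mod(mdg4) 0.655.

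**Figure D1:**
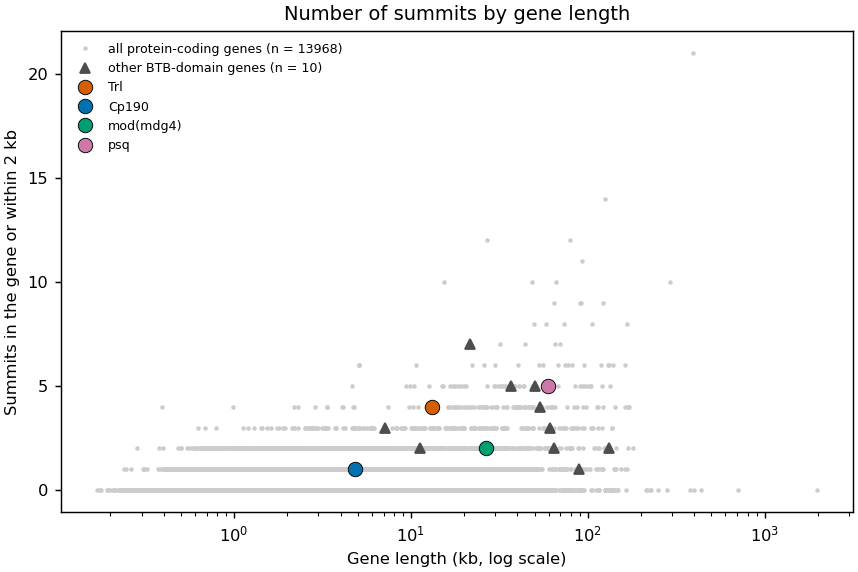
Number of conservative summits in each protein-coding gene or within 2 kb of it (vertical axis) against gene length in kb (horizontal, log scale); grey points are all 13968 genes, triangles 10 other BTB-domain genes and large circles the members. Trl, with 4 summits in 13121 bp, lies high among genes of its length, while mod(mdg4), with 2 in 26556 bp, lies amid them.

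By its strongest summit, Trl ranked first of the 4 genes and psq last. Signal is the authors' own value for a peak. Its median was 122 over the conservative list, the shorter of the authors' thresholded lists for both replicates together. Of the 12 summits, 6 were above this median and 5 in the top 25%, and none of these was at psq. The strongest summit had a signal of 844 at Trl, 467 at Cp190, 363 at mod(mdg4) and 122 at psq. By this measure Trl stood at place 111 of the 3944 genes with a summit, Cp190 at 359, mod(mdg4) at 571 and psq at 2517; the median gene had 156. At these summits, the order was the same in replicate 1 and in replicate 2. The step from Cp190 to mod(mdg4) was the smallest, at 0.37 on the log2 scale in replicate 1 and 0.25 in replicate 2. This step and place 571 take a mod(mdg4) summit that lay outside the gene and nearer to tin. The summit inside mod(mdg4) was at 252, with 119 in replicate 1 and 130 in replicate 2. The steps from Trl to Cp190 were 0.87 and 0.93, and those from mod(mdg4) to psq 1.92 and 1.5. For psq the step takes the summit that is strongest in the conservative list, at 54.4 in replicate 1, where another psq summit reached 67.9. The log2 ratio of the replicates had an SD of 0.49 across all matched peaks and 0.28 across the 12 summits. That SD describes the same peak in different replicates, not different peaks in the same replicate, so it does not sort the steps.

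**Figure D2:**
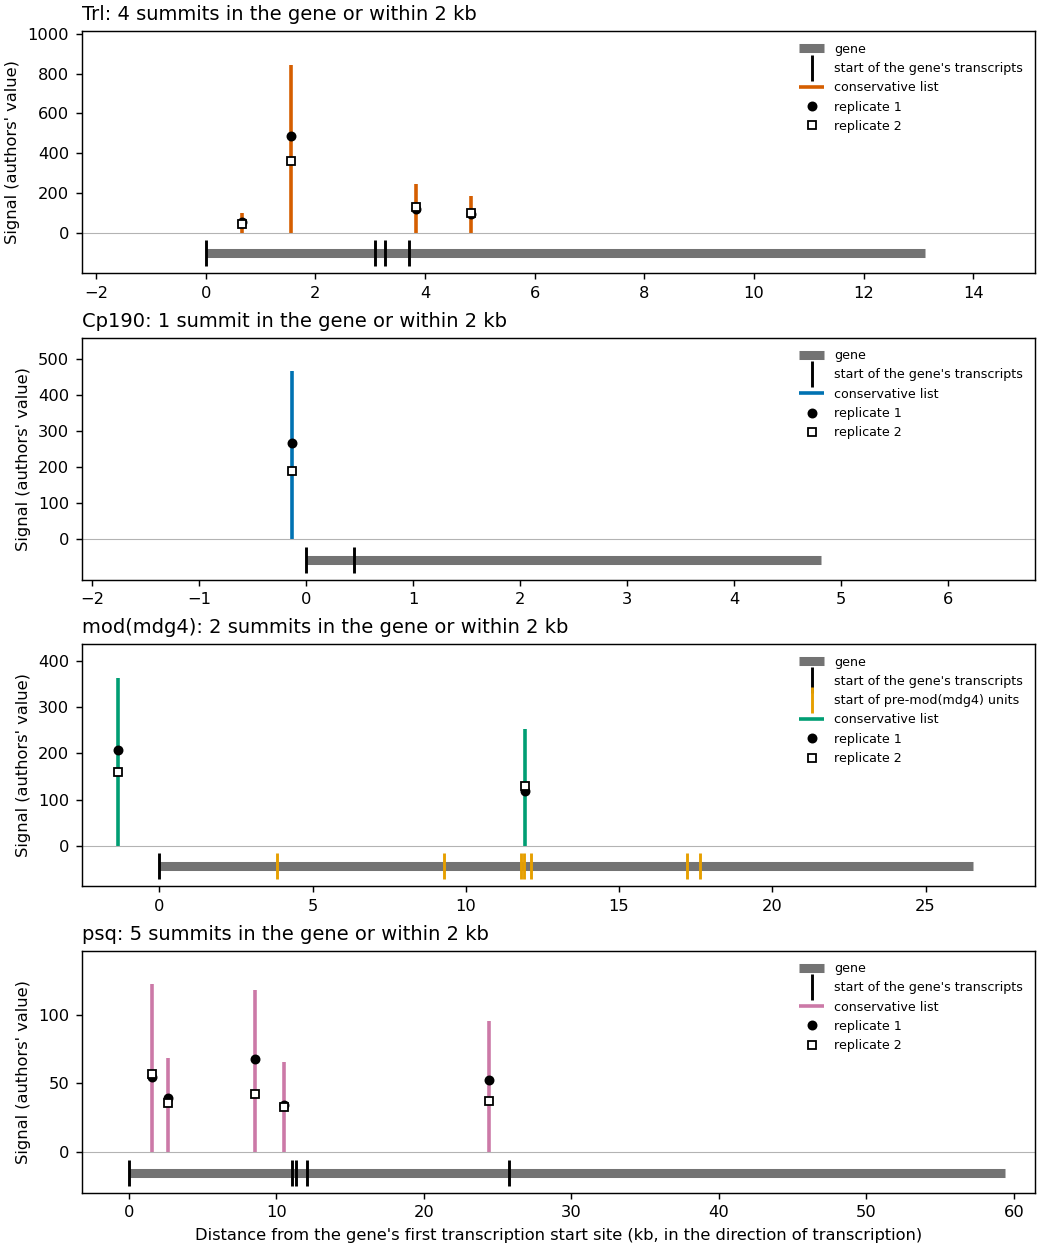
Summits at the 4 genes by distance in kb from the gene's first transcription start (horizontal, in the direction of transcription) and signal (vertical, the authors' value; scales differ between panels); coloured lines give the conservative list, filled circles replicate 1, open squares replicate 2, grey bars the gene and ticks the annotated starts. The Trl summits lie in the first 4838 bp of the gene and those of psq in the first 24439 bp, and the 844 summit of Trl exceeds all others.

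All 12 summits had a peak in the ranked list of both replicates within 150 bp, as did 93.8% of conservative peaks. These matches are not separate support, because the conservative list is itself for both replicates together. The ranked lists are also long, with 91354 peaks on the arms in replicate 1 and 114366 in replicate 2. Replicate signals are on a smaller scale than the conservative list, whose value had a median ratio of 0.995 to the sum of both replicates. On the log2 scale, replicate 1 over replicate 2 lay between -0.13 and 0.67 for the 12 summits, with a median of 0.23, against 0.15 over all 3579 matched peaks. Each of the 12 ratios lay between -0.66 and 0.94, the 5th and 95th percentiles of all matched peaks. The summits of both replicates lay close to the conservative one, 22 of 24 within 35 bp of it, and the farthest 117 bp away, in replicate 2 at psq. Support was weaker by the authors' own threshold: 8 of the 12 summits were matched in the thresholded lists of both replicates (54.2% of all conservative peaks were). The other 4 were 3 summits of psq, matched in neither, and the weakest of Trl, matched in replicate 1.

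**Figure D3:**
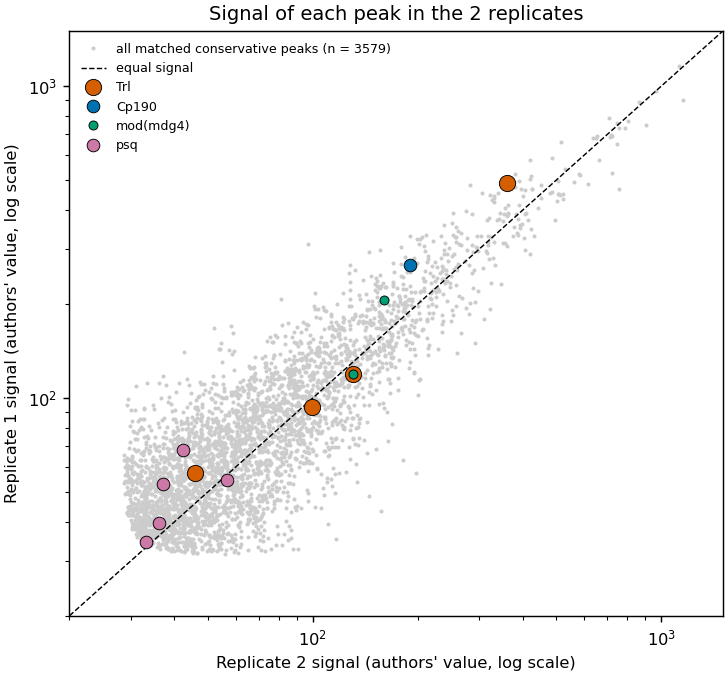
Signal in replicate 1 (vertical) against replicate 2 (horizontal), the authors' values on log scales; grey points are the 3579 matched conservative peaks, the dashed line marks equal signal and coloured points are the 12 member summits. The members lie within the cloud of all peaks, with a Trl and a mod(mdg4) point on top of each other at 119 in replicate 1 and 130 in replicate 2.

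At Trl (FBgn0013263, chr3L:14747929-14761049, minus strand), 10 annotated transcripts begin at 4 starts, and 7 of them at 14757962. The strongest summit, with signals of 489 in replicate 1 and 361 in replicate 2, lay 1558 bp inside the gene from the first start, which serves 1 transcript, and 1529 bp upstream of the start that serves 7. It was peak 51 of the conservative list, in its top 1.34%. The next, at 244 (119 in replicate 1 and 130 in replicate 2; chr3L:14757127-14757274), lay 129 bp downstream of the last start, within an exon annotated as untranslated for Trl and CG42507, and was the only Trl summit within 500 bp of a Trl start. A summit within 500 bp of a start of its gene is called a promoter summit. Of the 4 genes, 2 (Trl and Cp190) had one, against 14.2% of protein-coding genes. That share is over genes of all lengths and was not taken by length class or number of starts.

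The third Trl summit, at 188 (93.8 in replicate 1 and 99.1 in replicate 2; chr3L:14756039-14756382), lay in an intron 1125 bp past the last start. The weakest, at 98.6 (57.3 in replicate 1 and 45.9 in replicate 2; chr3L:14760213-14760556), lay in an intron 664 bp from the first start, its peak overlapping an exon of Tsen34, a tRNA-splicing endonuclease gene. The 4 signals had the same order in both replicates, and the 4 summits spanned 4174 bp. CG42507, an overlapping gene on the same strand (chr3L:14747929-14757962), also begins at 14757962, so the summits cannot be assigned to Trl alone. At that start itself the conservative list had no summit, but the larger list of the authors had 1 at 88.2, lying 129 bp upstream, with 59.1 in replicate 1 and 20.6 in replicate 2. Replicate 1 alone also passed its threshold at an intronic site 2082 bp past the last start, where replicate 2 was at 11.2 and replicate 1 at 81.9.

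GAGAG, the repeat that the products of Trl and psq read, was found within 100 bp of 1 of the 12 summits. That was the weakest Trl summit, shown here because it alone held GAGAG and the tramtrack core AGGAC. The run is chr3L:14760285-14760485 with the summit at base 101. Its first capitals are overlapping minus-strand matches to GAGAG, which begin 96 and 94 bp to the left of the summit. Its other capitals are a minus-strand match to AGGAC, which begins 22 bp to the left.
Trl, weakest summit: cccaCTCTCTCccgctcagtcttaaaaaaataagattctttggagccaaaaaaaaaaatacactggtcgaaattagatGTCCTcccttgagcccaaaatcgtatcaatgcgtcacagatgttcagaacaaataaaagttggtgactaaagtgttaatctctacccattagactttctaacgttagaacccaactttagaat
Over all 3815 summits 24.0% had GAGAG within 100 bp, and so had 25.2% of windows of the same width centred 500 bp to either side. AGGAC, the core bound by the shorter tramtrack isoform, was in 9.36% of all summit windows and 16.1% of the side windows.

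No other match was found within 100 bp of the 12 summits for the other motifs: GGTCCT (1.42% of all summits), AGGGCGG and AGGGTGG, forms bound by the longer isoform (0.813% and 2.12%), CGATA, the core bound by BEAF-32 (25.8%), TATCGATA, bound by DREF (2.39%), GGTCACACT, bound by M1BP (1.10%), and CAGGTAG, bound by Zelda (0.629%). In the side windows, GGTCCT was in 3.51%, AGGGCGG in 1.8% and CAGGTAG in 1.32%, each above its share at summits. For AGGGTGG (1.47%), CGATA (21.2%), TATCGATA (0.59%) and GGTCACACT (0.367%), the side-window share was below that at summits. GGTCCT contains the reverse complement of AGGAC, and TATCGATA contains CGATA. With the whole peak searched, the Cp190 peak held AGGGTGG beginning 130 bp from its summit, as 2.78% of all peaks did, and 1 psq peak of the 12 member peaks held CGATA, against 33.6% of all peaks. A missing match says only that these letters are not in the window. The windows were rich in A and T: their GC content ran from 22.9% at Cp190 to 46.3% at the promoter summit of Trl, with a median of 30.8%, against a median of 35.3% (quartiles 31.3% and 40.8%) over all summits and 43.3% in the side windows.

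At Cp190 (FBgn0000283, chr3R:15270432-15275241, minus strand) the single summit was at 467, with 267 in replicate 1 and 190 in replicate 2, and was peak 193 of the conservative list. All 3 lists placed it at the same base. It lay 130 bp upstream of the outer Cp190 start and 151 bp upstream of CG4338 (chr3R:15275522-15276474), which runs the other way, so it sits between opposed promoters and cannot be given to either gene. At the inner Cp190 start, the conservative list had no further summit within 500 bp; replicate 1 had no ranked peak and replicate 2 had 1 at 9.35.

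At mod(mdg4) (FBgn0002781, chr3R:21350846-21377401, minus strand), all 22 annotated transcripts share 1 start, and no conservative summit lay within 500 bp of it. The ranked lists held a peak 23 bp upstream of this start at 33.2 in replicate 1 and 29.1 in replicate 2, far below the gene's summits. The stronger summit, at 363 (206 in replicate 1 and 160 in replicate 2), lay 1354 bp upstream of mod(mdg4) but 222 bp upstream of tin, the homeobox gene of heart and mesoderm formation, which runs the other way.

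The second mod(mdg4) summit lay at internal starts of the trans-spliced units. It was at 252, with 119 in replicate 1 and 130 in replicate 2 (chr3R:21365313-21365656), and lay 11916 bp into the gene. Its position was 3 bp inside pre-mod(mdg4)-E, at a start used by 1 transcript of that unit. It was also 195 bp upstream of the start shared by pre-mod(mdg4)-E, pre-mod(mdg4)-AB and pre-mod(mdg4)-C on the minus strand, and 124 bp upstream of the start shared by 7 units on the plus strand, among them pre-mod(mdg4)-U and pre-mod(mdg4)-V. The annotation places 23 such units at 7 starts within mod(mdg4). These 3 neighbouring starts were within 500 bp of the conservative summit, and the other 4 had none. At those 4, replicate 1 had no ranked peak within 500 bp, while replicate 2 had 29.5 at the start of pre-mod(mdg4)-AA, pre-mod(mdg4)-N and pre-mod(mdg4)-O, and 13.0 near an inner start of pre-mod(mdg4)-U and pre-mod(mdg4)-V.

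**Figure D4:**
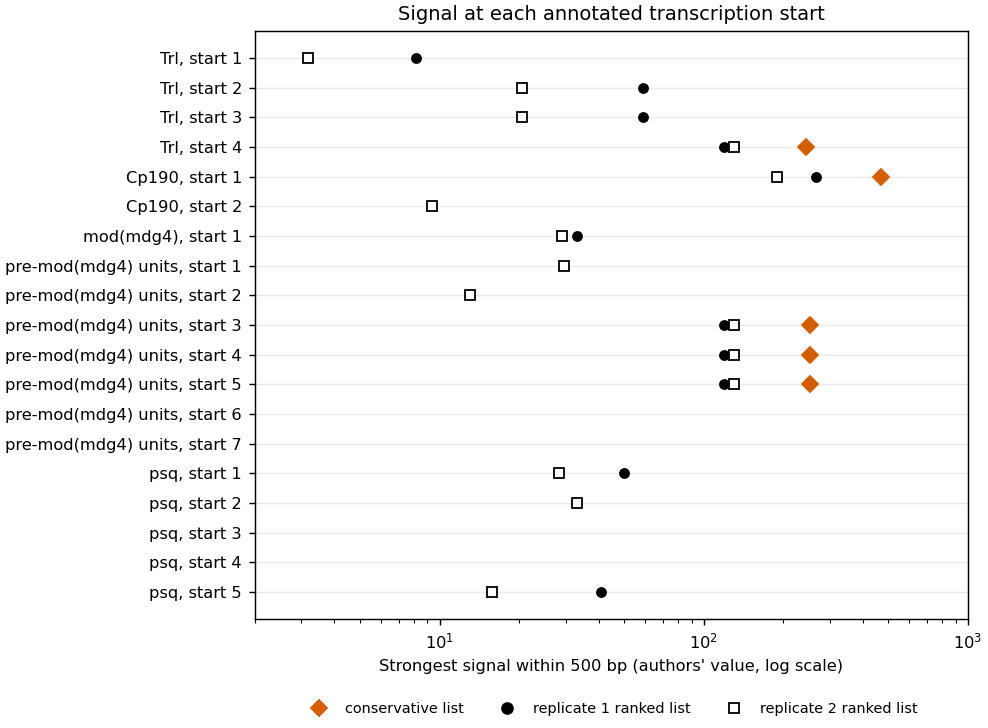
Strongest signal within 500 bp of each annotated start at the 4 genes and the pre-mod(mdg4) units (horizontal, the authors' value, log scale), with starts numbered along the direction of transcription of the gene that holds them; diamonds give the conservative list, filled circles replicate 1 and open squares replicate 2, and a row without a symbol had no peak. The diamonds stand at 1 start of Trl (244), 1 of Cp190 (467) and 3 neighbouring starts of the pre-mod(mdg4) units (252, the same summit), and none of the 5 psq starts has one.

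At psq (FBgn0263102, chr2R:10557888-10617280, plus strand) all 5 summits were intronic and none exceeded the median of the conservative list. The highest, 1540 bp past the first start, was at 122, with 54.4 in replicate 1 and 56.6 in replicate 2 (chr2R:10559256-10559599). The summit 8563 bp past the first start was at 118, with 67.9 and 42.5 in replicates 1 and 2 (chr2R:10566279-10566622). The replicates thus differed in which of these was the higher.

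The other 3 psq summits lay 24439 bp, 2664 bp and 10530 bp past the first start, with signals of 95.3, 68.7 and 65.5. The first of them had 52.8 in replicate 1 and 37.0 in replicate 2. The summit at 2664 bp had 39.8 and 36.1 in replicates 1 and 2, and that at 10530 bp had 34.4 and 33.1. All 5 lay in the first 24439 bp of the 59393 bp gene, upstream of the last start, where 5 of 15 transcripts begin. The summit at 10530 bp lay 524 bp upstream of an inner start, just beyond the promoter limit, and no summit lay within 500 bp of the inner starts.

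The psq loci also show where the authors' threshold fell. The conservative list takes IDR scores of at least 830, where IDR, the irreproducible discovery rate, measures how well peak ranks repeat between lists. Just inside was the psq summit at 10530 bp, with a score of 836, which the larger list did not hold. Just outside was a peak 71 bp upstream of the first psq start, where 6 of the 15 transcripts begin: its score in the ranked list for both replicates together was 810, and it had 50.1 in replicate 1 and 28.3 in replicate 2. The larger list held this promoter peak, at a signal of 90.8, and 1 more intronic psq peak at 63.9. Its lowest score was also 830, so it is not a looser cut of the same scores. It gave the promoter peak a score of 1000 and the intronic peak 849, where the ranked list for both replicates together gave 810 and 100. With the larger list, 3 of the 4 genes had a promoter summit.

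Related genes had summits too. All 10 other BTB-domain transcription factor genes examined had a summit, 34 in all, against 28.2% of all protein-coding genes. They are longer, with a median of 51914 bp against 19838 bp for the members. By length they fell in class 9, where 39.5% of genes had a summit, and mostly in class 10, with 54.8%. In 10 kb of gene and flanks, ttk (7 summits) had 2.74 and ken (3 summits, class 9) had 2.69, both above Trl at 2.34. The rest of the 10 were below Trl. Both ab and bab2 had 5 summits, the number at psq. By strongest summit the 10 genes ran from 83.7 at bab1 to 215 at rib, with 206 at br, 197 at ttk and 189 at chinmo. All 10 were thus below Trl, Cp190 and mod(mdg4), while psq at 122 lay within their range, above bab1 and bab2 (95.7) and close to ab and fru (124 each). Promoter summits were found at 3 of these 10 genes, against 14.2% of all protein-coding genes. Of 14 genes for insulator proteins or partners of GAGA factor, 5 (35.7%) had a summit, near the 28.2% of all protein-coding genes. They were Chro, which encodes the chromodomain protein Chromator, at 1333, pita at 265, pzg at 198, BEAF-32 at 176 and lolal, another BTB gene, at 84.2. su(Hw), CTCF, dwg, ZIPIC, Ibf1, Ibf2, E(bx), Clamp and corto had none in the gene or within 2 kb. Promoter summits were found at 4 of the 14 genes, against 14.2% of all protein-coding genes. These 14 genes have a median length of 3761 bp, below that of the members but above the 2164 bp of all protein-coding genes. No test was made between the lists.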

How the data were processed

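Peak lists in dm6 coordinates were used, per the labels. Neither the aligner nor the peak caller is named in the sources used here. The authors deposited a signal value and an IDR score per peak, with the summit as an offset, in ranked and thresholded lists for each replicate and for both together. How the deposited signal was scaled is not known, nor is read depth, so no interval was computed. Of the 3815 conservative peaks on the arms, 74.0% are 344 bp wide, and in the 8 members' peaks of this width the summit is the midpoint.

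Genes and starts came from Ensembl release 115 without transposable elements, and bases from the NCBI assembly of this build. Coordinates are 1-based. Replicate support was the nearest ranked summit within 150 bp. Scripts ran in Python 3.11.15 with numpy 2.4.6, pandas 2.3.3 and matplotlib 3.10.9, and counting, matching and motif search were tested on simulated data. The members, gene lists and motifs were chosen with earlier results of these data known. Every summit of the members was named, with the genes whose starts were nearest, and the 4 strongest genes of each other list. The genes lolal, bab1, bab2, ab, fru, ken and those without a summit were named after their values were seen.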

Additional observations from a re-analysis of the deposited data

How the results depend on the processing

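Of 61 counts recomputed under alternatives, 55 stayed within 1.5 times the value reported. The exceptions concern psq, mod(mdg4) and Cp190. With peaks at or above the median signal, psq had 0 summits in place of 5, and with 1 replicate's thresholded list it had 2 to 3 (3 in replicate 1, 2 in replicate 2). The 0 rests on a narrow margin for the strongest psq summit, peak 1909 of 3815. It lay just below the median, and both round to 122. Without flanks, mod(mdg4) had 1 summit in place of 2 and Cp190 had 0 in place of 1; with flanks of 1 kb mod(mdg4) had 1. The losses with narrower flanks follow from the construction, since the summits concerned lie outside the genes. The larger list, flanks of 5 kb, whole peaks, overlapping peaks counted once, other promoter widths and other matching rules moved no count by more than 1.5 times, nor did 2 alternatives chosen after seeing the data: ranked peaks past the lowest conservative score, and motifs over the whole peak. Counting overlapping peaks once could change no count here, because neighbouring summits at these genes lay at least 894 bp apart. The ranked peaks were cut at the conservative list's own lowest score, so their equal counts are not separate support. No paired analysis was possible because there is only 1 group. Depth is unknown, so a missing summit does not show that the protein was absent.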

Other observations

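The ranked lists, which hold peaks on both sides of the authors' thresholds, had more peaks at these genes than the thresholded lists. At psq there were 55 in replicate 1 and 50 in replicate 2, with median signals of 19.1 and 14.1. At mod(mdg4) there were 30 and 14, at Trl 16 and 12, and at Cp190 10 in each. The mod(mdg4) lists thus differed in length by more than those of the other 3 genes, although replicate 2 had the longer ranked list in all, with 114366 peaks on the arms against 91354 in replicate 1. At Trl the median ranked signals were 29.9 and 20.5 in replicates 1 and 2, higher than at the other 3 genes.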
